A study of Mus musculus with 5 samples.

Results

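The genes described here are 36 genes of glycolysis and of the response to low oxygen, listed by name, of which 34 were paired with a probe set in the platform annotation. They are 34 of the 19505 genes measured. Of the 36, 18 encode glycolytic enzymes, their regulators and the carriers of glucose and lactate, and 16 of these were measured. The other 18 are further targets and components of the hypoxia-inducible factor HIF-1, and all were measured. Gpi1 and Eno1 had no probe set named for them and were not analysed here, and Ero1l is listed on the array under its current symbol Ero1a.

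RNA was taken from tumour-associated macrophages of C57BL/6 mice and measured on 5 single-colour whole-transcript arrays, 3 from mice lacking the adaptor protein MyD88 (MyD88-ko) and 2 from wild-type mice (WT). All mice, female or male and 6 to 12 weeks old, carried subcutaneous tumours of the same mouse melanoma line, B16-F10. At day 15 cells carrying CD45, CD11b and F4/80 were sorted, and those with the lymphocyte antigens CD3, B220 or NK1.1 were left out. The protocol names spleen cells as the source although the labels call the cells tumour-associated. Whether each array had its own mouse is not stated, so p-values reflect no more than array-to-array spread, which may be technical. Nor do the labels say how Myd88 was deleted or in which cells.

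Values are log2 RMA values, the array manufacturer's normalized probe set summaries, and a difference of 1 is a doubling. No detection calls came with them, so a background limit was set for each array at the 95th percentile of its 5222 negative controls, which lay between 6.55 and 6.96. It was 6.55, 6.59 and 6.74 on the MyD88-ko arrays and 6.91 and 6.96 on the WT arrays. A value can therefore be above the limit in MyD88-ko while a higher value is under it in WT. Of 11 measured macrophage markers, 10 were above this limit on all arrays. None of the measured markers of B, T and NK cells was above it on any array. Of 8 measured classical monocyte markers, 6 were above it on all arrays, so these counts do not tell macrophages from monocytes. Of the 34 genes, 26 were above it on all arrays (15.3% of all genes) and 5 on none (75.9%), namely Pfkfb4, Ddit4, Ankrd37, Kdm3a and P4ha2. Melanoma markers were also present in both groups, with 7 of 10 above the limit on all arrays. Myd88 itself measured 7.73, 7.01 and 7.58 on the MyD88-ko arrays and 8.46 and 8.40 on the WT arrays, 1.99-fold lower without overlap but not past the threshold (limma, adjusted p = 0.179). Whether its probes lie in the deleted part is not stated, so the value is no firm check of the labels.

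Glycolysis breaks glucose down to pyruvate, and cells that rely on it turn the pyruvate into lactate and export it. HIF-1 is a transcription factor whose alpha subunit, encoded by Hif1a, is hydroxylated and destroyed while oxygen is plentiful and accumulates when oxygen is scarce. It binds a short core motif in many promoters and raises transcription of glucose carriers, of nearly every glycolytic enzyme and of genes for mitochondrial turnover, collagen modification and pH control. In macrophages Hif1a is also a target of NF-κB downstream of Toll-like receptors and the IL-1 receptor, which signal through MyD88. Macrophages in tumours meet both kinds of signal.

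The glycolytic genes had differences of both signs, from -0.52 for the glucose carrier Slc2a1 to 0.21 for the hexokinase Hk3, and 6 of 16 lay within 0.1 of 0. The other hypoxia targets had mostly lower values in MyD88-ko, and no gene of either list passed the test. None of the 34 genes had an adjusted p under 0.05 (limma, Benjamini-Hochberg over all genes; 37 of 19505 genes, or 0.19%, passed, of which 1, or 0.00513%, was higher). With any single array left out, 0 or 1 of all genes passed. The lowest adjusted p among the 34 was 0.167, for Mxi1. At an unadjusted limma p under 0.05, 4 of 34 were lower and 0 higher, against 6.39% lower and 6.16% higher among all genes. All 4 were hypoxia targets outside glycolysis, namely Mxi1, Hif1a, Ddit4 and Egln3. Of the 2992 genes above the background limit on all arrays, 468 were lower and 331 higher at that p. Of the 26 listed genes among them, 3 were lower and 0 higher. The count of lower genes therefore does not set the list apart from genes above the limit.

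The median log2 difference, MyD88-ko minus WT, was -0.03 over the 16 glycolysis and transport genes and -0.37 over the other 18 hypoxia targets, against 0.02 over all genes. In the first list 9 of 16 differences were negative, and in the second 15 of 18, where 46.9% of all genes had a negative difference. All MyD88-ko values lay below all WT values for 1 of the 16 glycolysis genes and for 9 of the 18 others, against 12.9% of all genes. The reverse, all MyD88-ko values above all WT values, held for 0 of the 34 genes and for 14.8% of all genes. Of the 2992 genes above the background limit on all arrays, 755 were lower without overlap and 665 higher. Of the 26 listed genes among them, 7 were lower and 0 higher. Their share of lower genes was thus near that of the 2992, while none was higher. The mean difference of the glycolysis list exceeded that of the other list by 0.25. A score over chosen genes gets no test here, so this contrast is a description.

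**Figure D1:**
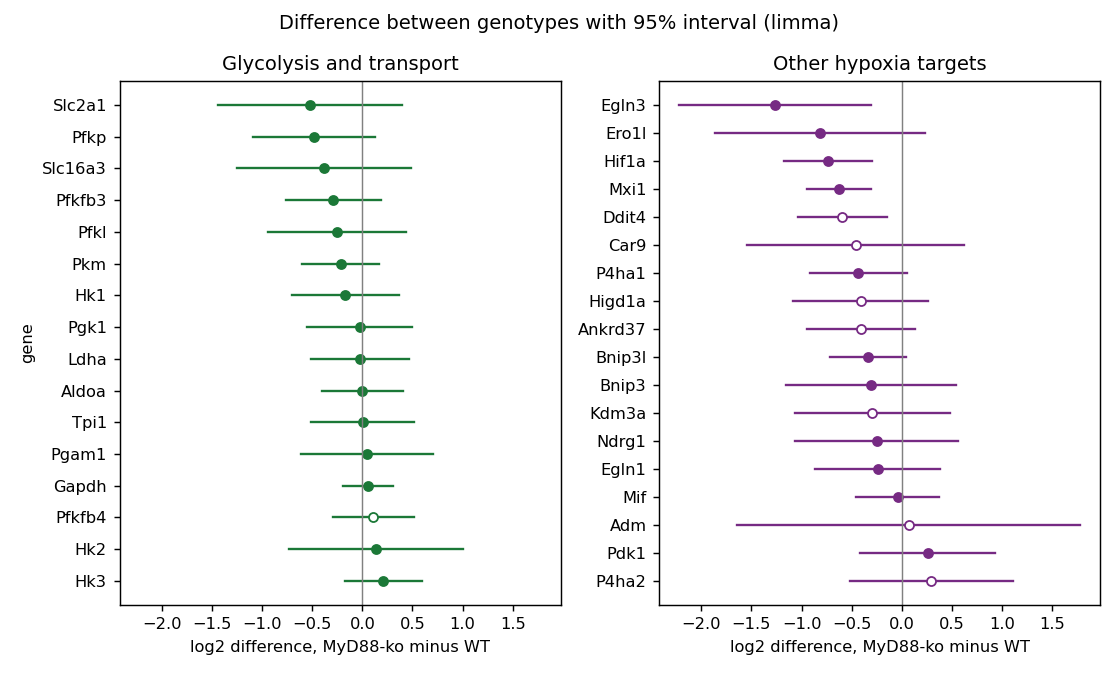
Log2 difference (MyD88-ko minus WT) of each measured gene with its 95% interval from limma, glycolysis and transport on the left and other hypoxia targets on the right; filled points were above the background limit on all 5 arrays. The interval leaves out 0 for 4 of 34 genes, all on the right, and 6 of 16 glycolysis genes lie within 0.1 of 0.

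One array carried much of the difference. MyD88-ko replicate 2 had the lowest value of the 5 arrays for 30 of the 34 genes, 13 of 16 in glycolysis and 17 of 18 among the other targets. The same array was lowest for 17.9% of all genes and for 24.3% of the 2992 genes above the background limit on all arrays. For the remaining 4 genes (Gapdh, Hk3, Pfkfb4 and Pdk1) WT replicate 1 was lowest. Relative to the mean of the other 2 MyD88-ko arrays, replicate 2 was lower by a median of -0.59 in glycolysis and -0.82 among the other targets, against -0.0046 over the genes above the limit on all arrays.

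The list means show the same ordering. Over the 16 glycolysis genes the mean log2 value was 9.56, 8.95 and 9.51 on the MyD88-ko arrays 1 to 3 and 9.31 and 9.59 on the WT arrays. Over the other 18 it was 7.90, 6.999 and 7.80 in MyD88-ko and 7.84 and 8.03 in WT. MyD88-ko replicates 1 and 3 lay inside the WT range for glycolysis, and for the other list replicate 1 lay inside it and replicate 3 just below. Replicate 2 was below it for both. Without replicate 2 the median difference was 0.11 in glycolysis and -0.07 among the other targets, and the number of negative differences was 5 of 16 and 10 of 18, against 48.1% of all genes. Leaving out an array cannot make groups overlap that were apart with it, so the count of 9 hypoxia targets without overlap, which stayed at 9 (18% of all genes), is no sign of stability. At an unadjusted limma p under 0.05, Egln3, Hif1a, Mxi1 and Ero1l were then lower, 4 of 34 against 4.75% of all genes, and P4ha2, under the background limit, was higher.

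**Figure D2:**
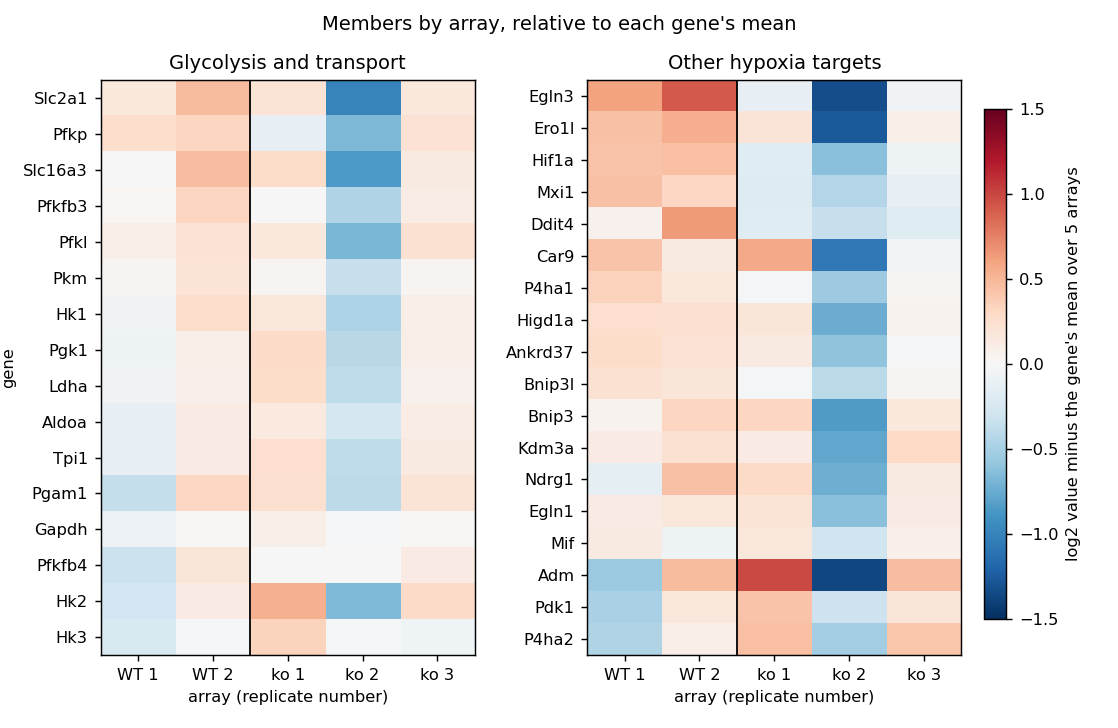
Value of each gene on each array as its log2 difference from that gene's mean over the 5 arrays (red higher, blue lower), genes ordered by their MyD88-ko minus WT difference. The MyD88-ko replicate 2 column is blue for nearly every gene, with the lowest value in 30 of 34, and the upper rows of the right panel are blue in all 3 MyD88-ko columns for Hif1a, Mxi1, Ddit4 and Egln3.

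**Figure D3:**
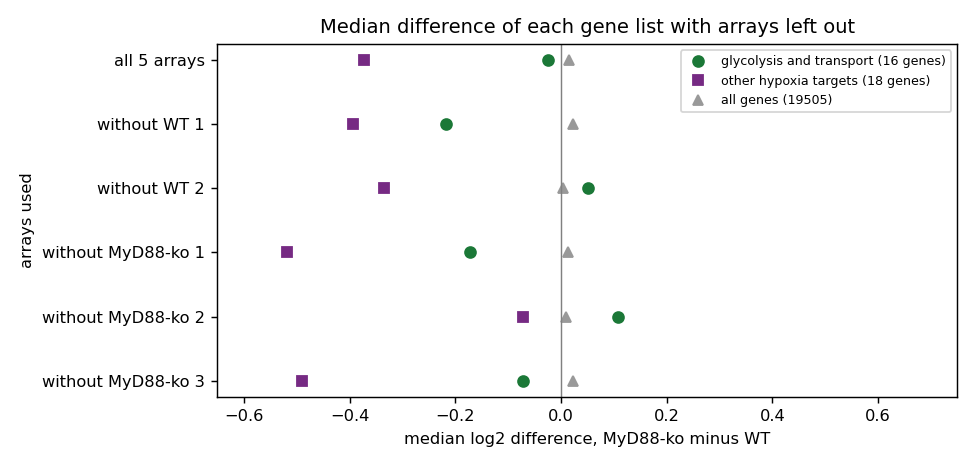
Median log2 difference of the glycolysis list (circles), the other hypoxia targets (squares) and all genes (triangles) with all 5 arrays and with each array left out. The squares lie between -0.52 and -0.07 and the circles between -0.22 and 0.11; both move furthest up when MyD88-ko replicate 2 is left out, while all genes stay near 0.

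The start sites of the listed genes were searched for the HIF core motif. RefSeq start windows (GRCm38.p6, 250 bases before to 50 after each start) were found for 32 of the 34 genes and searched on both strands for ACGTG and GCGTG. Overlapping matches, as in the palindrome CACGTG that is also an E-box, were counted as 1 site. Of the 32 genes, 31 had a site in some window and Tpi1 had none. At least 1 site was present in 81.4% of the 43 windows of these genes, against 43.8% of all 32851 windows. The core holds a CpG and these windows are rich in CpG, and the share was therefore also taken among windows with at least 10 CpG. There a site was present in 88.9% of theirs and in 68.4% of all. By list, a site was present in 18 of 22 glycolysis windows and 17 of 21 of the others. The following stretches upstream of the start show the sites in 4 genes whose values overlapped between genotypes (Slc2a1, Ldha, Pgk1, Bnip3) and 4 whose values did not (Egln3, Hif1a, Mxi1, Ero1l), with the sites in capitals.
Slc2a1, chr4:119108674-119108723, plus strand: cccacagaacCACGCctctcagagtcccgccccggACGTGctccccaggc
Ldha, chr7:46845649-46845778, plus strand: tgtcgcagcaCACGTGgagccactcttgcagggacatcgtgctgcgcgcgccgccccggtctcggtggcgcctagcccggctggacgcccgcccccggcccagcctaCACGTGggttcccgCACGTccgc
Pgk1, chrX:106186940-106186983, plus strand: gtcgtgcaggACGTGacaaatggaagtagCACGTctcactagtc
Bnip3, chr7:138909527-138909633, minus strand: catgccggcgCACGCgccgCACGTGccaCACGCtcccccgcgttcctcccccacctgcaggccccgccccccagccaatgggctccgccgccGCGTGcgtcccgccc
Egln3, chr12:54204089-54204113, minus strand: tgcatctcagACGTGagatccaggt
Hif1a, chr12:73907722-73907811, plus strand: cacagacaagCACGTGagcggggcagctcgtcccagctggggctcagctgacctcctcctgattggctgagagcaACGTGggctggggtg
Mxi1, chr19:53329337-53329361, plus strand: tcggcacccgACGTGcactggcggg
Ero1l, chr14:45318621-45318710, minus strand: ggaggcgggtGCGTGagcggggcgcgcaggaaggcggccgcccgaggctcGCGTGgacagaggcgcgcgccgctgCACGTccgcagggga
Each stretch runs from the first to the last site upstream of the start in 1 window a gene, with 10 bases on either side except after the last site of Ldha. Sites stood in both kinds of gene, with 3 in the stretch of Ldha and 1 in that of Egln3. A match is a string of letters and was not tested for binding.

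In the oxygen-sensing group, the values of Hif1a and Egln3 did not overlap between genotypes and those of Egln1 did. Hif1a, the oxygen-labile subunit of HIF-1, measured 9.26, 8.81 and 9.36 on the MyD88-ko arrays and 9.86 and 9.89 on the WT arrays. The WT values were almost equal and all MyD88-ko values lay clearly below them. The log2 difference was -0.74 ± 0.18 (SE), or 1.67-fold lower, with a 95% interval of -1.17 to -0.30 and an adjusted p of 0.206 (limma). Egln3, the prolyl hydroxylase PHD3, which is itself a strongly induced HIF target and marks the alpha subunit for destruction, measured 7.86, 6.65 and 7.93 against 8.59 and 8.90. Its difference was the largest of the 34 at -1.26 ± 0.39 (SE), or 2.40-fold lower, with an interval of -2.22 to -0.31 (limma, adjusted p = 0.278). Without MyD88-ko replicate 2 it was -0.85 (limma, adjusted p = 0.459), and Hif1a was -0.57. Egln1, the main prolyl hydroxylase PHD2, overlapped between groups, averaging 8.44 ± 0.46 (SD, n = 3) in MyD88-ko against 8.68 ± 0.03 (SD, n = 2).

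Mxi1, a repressor that antagonises MYC and is induced by HIF, had the lowest p of all 34 genes. It measured 7.95, 7.71 and 8.03 in MyD88-ko and 8.59 and 8.46 in WT. The groups were apart by more than the range within either, and the difference was -0.63 ± 0.13 (SE), or 1.55-fold lower, with an interval of -0.95 to -0.31 (limma, adjusted p = 0.167). Leaving out any single array kept Mxi1 between -0.70 and -0.54. Ddit4, the mTORC1 inhibitor REDD1, measured 5.98, 5.82 and 5.99 against 6.24 and 6.81, also without overlap, but every one of these values was under the background limit and no fold is given.

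Among the targets in collagen modification and secretory folding, P4ha1 and Ero1l had groups that did not overlap. P4ha1, a collagen prolyl hydroxylase subunit, measured 8.77, 8.24 and 8.84 in MyD88-ko against 9.14 and 8.96 in WT, a difference of -0.43 ± 0.20 (SE; limma, adjusted p = 0.449) that was -0.25 without MyD88-ko replicate 2. Ero1l, the oxidase that recharges protein disulfide isomerase in the endoplasmic reticulum, measured 10.02, 8.57 and 9.92 against 10.26 and 10.38. Its difference of -0.82 ± 0.43 (SE; limma, adjusted p = 0.504) was -0.35 without that array. P4ha2, the sister subunit of P4ha1, was under the limit on all arrays, with means of 5.76 and 5.47.

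**Figure D4:**
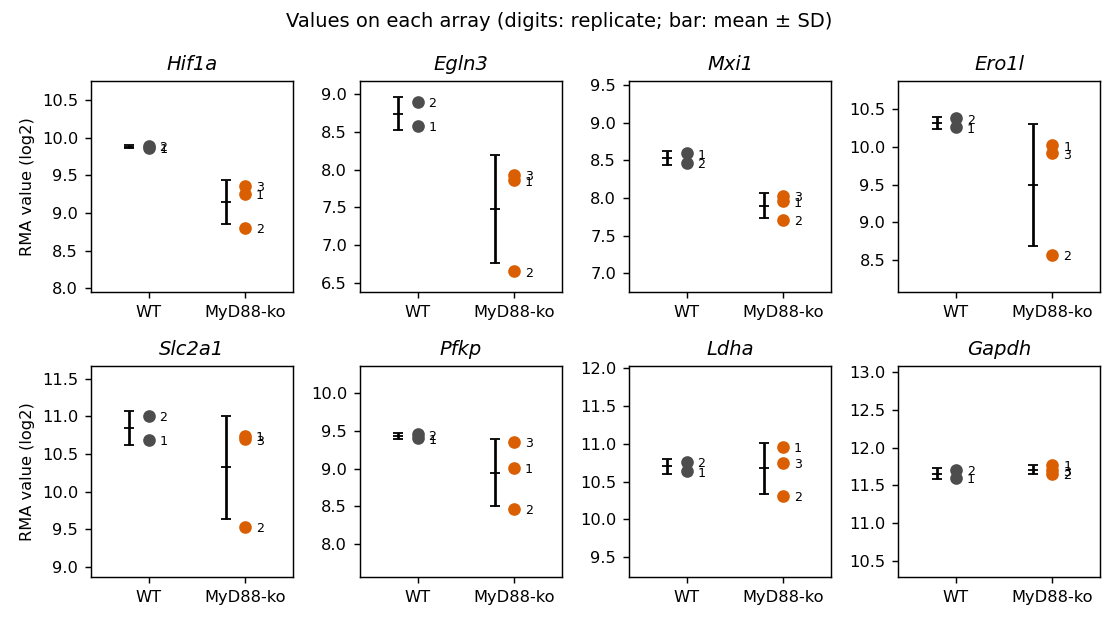
Log2 RMA values on each array (points, with the replicate number beside each) and mean ± SD (bars, n = 2 WT and n = 3 MyD88-ko) for 4 hypoxia targets outside glycolysis (top) and 4 glycolysis and transport genes (bottom), every panel spanning 2.8 log2 units. All MyD88-ko points lie below both WT points in the top row and for Pfkp; Slc2a1, Ldha and Gapdh overlap, and MyD88-ko replicate 2 is the lowest point in every panel except that of Gapdh.

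Of the genes that act on mitochondria, Bnip3l, a mitophagy receptor also called NIX, measured 7.79, 7.42 and 7.86 in MyD88-ko and 8.05 and 8.001 in WT. Its groups did not overlap, and the difference of -0.34 ± 0.16 (SE) did not pass (limma, adjusted p = 0.457) and was -0.20 without MyD88-ko replicate 2. Its relative Bnip3 overlapped, at means of 8.93 ± 0.63 (SD, n = 3) and 9.24 ± 0.19 (SD, n = 2), and turned to a difference of 0.06 without MyD88-ko replicate 2. Pdk1, which inhibits pyruvate dehydrogenase, pointed the other way, at 7.80 and 7.55, with overlap. Higd1a, a small protein of the respiratory chain, had no overlap at means of 6.72 and 7.13 but was under the limit on MyD88-ko replicate 2.

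The remaining hypoxia targets did not separate the genotypes, apart from Ankrd37, whose means of 5.99 and 6.40 came from values under the limit throughout. Ndrg1, a stress-response gene, averaged 9.22 ± 0.55 (SD, n = 3) and 9.47 ± 0.40 (SD, n = 2). Mif, a secreted cytokine, differed by -0.04 with an interval of -0.46 to 0.37. Adm, which encodes the vasodilator peptide adrenomedullin, varied most between arrays, at 7.60, 5.24 and 7.08 in MyD88-ko and 6.05 and 7.09 in WT. The lowest and the highest of its 5 values were both in MyD88-ko. Car9, a carbonic anhydrase of hypoxic cells, was above the limit on 1 array only, and Kdm3a, a histone demethylase, on none.

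In glycolysis, the carriers at the entry and exit of the pathway had overlapping values that were lowest in MyD88-ko replicate 2. Slc2a1, the glucose carrier GLUT1, measured 10.74, 9.54 and 10.69 in MyD88-ko and 10.69 and 11.00 in WT, a difference of -0.52 ± 0.38 (SE; limma, adjusted p = 0.612) that was -0.13 without that array. Slc16a3, the lactate exporter MCT4, measured 9.98, 8.85 and 9.84 against 9.71 and 10.17, and its difference of -0.38 (limma, adjusted p = 0.693) became -0.03 without it. For both genes MyD88-ko replicates 1 and 3 lay within the WT range.

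The hexokinases, which trap glucose in the cell, overlapped between genotypes in all 3 isoforms. Hk3, the isoform typical of myeloid cells, measured 8.23, 7.87 and 7.83 in MyD88-ko and 7.66 and 7.87 in WT, a difference of 0.21 ± 0.16 (SE; limma, adjusted p = 0.627). Hk2, the inducible isoform and a HIF target, averaged 7.85 ± 0.63 (SD, n = 3) against 7.72 ± 0.28 (SD, n = 2). The constitutive Hk1 averaged 8.49 ± 0.35 (SD, n = 3) against 8.66 ± 0.22 (SD, n = 2). Hk2 and Hk1 were lowest on MyD88-ko replicate 2, whereas Hk3 was lowest on WT replicate 1.

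The committed step held the single glycolytic gene without overlap. Pfkp, the platelet-type phosphofructokinase, measured 9.01, 8.47 and 9.36 in MyD88-ko and 9.40 and 9.46 in WT. The gap between the nearest arrays was small, and the difference of -0.48 ± 0.25 (SE) had the lowest p of the glycolysis list (limma, unadjusted p = 0.102, adjusted p = 0.5005). Without MyD88-ko replicate 2 it was -0.24. Pfkl, the liver-type enzyme, overlapped at means of 8.02 and 8.27. Pfkfb3, which makes the activator fructose 2,6-bisphosphate, measured 8.69, 8.24 and 8.80 against 8.72 and 9.01, a difference of -0.29 ± 0.20 (SE; limma, adjusted p = 0.593) that was -0.12 without the same array. Its isoform Pfkfb4 was under the limit on all arrays.

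The 7 measured genes of the lower pathway overlapped between genotypes, with differences from -0.21 to 0.06. Gapdh measured 11.77, 11.65 and 11.70 in MyD88-ko and 11.60 and 11.71 in WT. It had the narrowest interval of the 34, from -0.19 to 0.31 around a difference of 0.06 (limma, adjusted p = 0.851). Pkm, pyruvate kinase, measured 11.20, 10.80 and 11.20 against 11.20 and 11.36, a difference of -0.21 ± 0.16 (SE; limma, adjusted p = 0.619). Aldoa, Tpi1, Pgk1, Pgam1 and Ldha all had differences between -0.03 and 0.04. Without MyD88-ko replicate 2 the differences were 0.13 for Aldoa, 0.20 for Tpi1, 0.18 for Pgk1, 0.25 for Pgam1, 0.16 for Ldha, 0.08 for Gapdh and -0.08 for Pkm. With all arrays, the intervals show what could have been missed, with -0.51 to 0.46 for Ldha, which makes lactate, and -0.61 to 0.70 for Pgam1. Several of these genes, among them Gapdh, Aldoa, Pgk1 and Ldha, have processed pseudogenes in the mouse, and the sources used here do not say whether their probes also read such copies.

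The further lists covered the rest of the pathway, and none of their genes passed (limma, adjusted p under 0.05). Of 16 measured other glycolysis genes, 2 were lower and 0 higher at an unadjusted limma p under 0.05, against 6.39% and 6.16% of all genes. Both were glucose carriers. Slc2a6 (GLUT6) averaged 5.90 ± 0.17 (SD, n = 3) against 6.64 ± 0.17 (SD, n = 2), under the limit on all arrays (limma, adjusted p = 0.149). Slc2a3 (GLUT3), at 5.65, 5.56 and 5.66 against 6.26 and 7.41, was above the limit on WT replicate 2 alone (limma, adjusted p = 0.224), so no fold is given. Both carriers were at or near background, and both had lower values on all MyD88-ko arrays. Tigar, a brake on glycolysis, was under the limit on all arrays. The list's median was 0.07.

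Genes of pyruvate entry and of the pentose phosphate branch had a median of 0.07 over 9 measured genes. At an unadjusted limma p under 0.05, 0 were lower and 1 higher, against 6.39% and 6.16% of all genes. The 1 was Pdk2, a kinase that inhibits pyruvate dehydrogenase. Its values were under the limit on all arrays and higher without overlap, at means of 5.61 in MyD88-ko and 4.94 in WT. Pgd, of the pentose phosphate pathway, differed by 0.32 with overlap, and Taldo1 differed by -0.15 without overlap. None of the 3 passed (limma, adjusted p between 0.289 and 0.621).

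The components that control HIF had a median of -0.10 over 15 measured genes. Crebbp, a coactivator of HIF and of many other factors, measured 8.22, 8.35 and 8.65 in MyD88-ko against 8.89 and 8.75 in WT, a difference of -0.42 without overlap (limma, adjusted p = 0.345). Eloc, listed as Tceb1 in older annotations and part of the ubiquitin ligase that destroys HIF alpha subunits, differed by -0.47 without overlap (limma, adjusted p = 0.301). Epas1, encoding the other alpha subunit HIF-2α, pointed opposite to Hif1a at 5.35 ± 0.59 (SD, n = 3) against 4.03 ± 0.88 (SD, n = 2), but was under the limit on all arrays. In all, 3 of the 15 were lower and 1 higher at an unadjusted limma p under 0.05, against 6.39% and 6.16% of all genes.

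Further HIF targets had a median of -0.04 over 28 measured genes, with 4 lower and 3 higher at an unadjusted limma p under 0.05, against 6.39% and 6.16% of all genes. Tfrc, the transferrin receptor, was higher on all MyD88-ko arrays, at 6.80, 7.77 and 7.14 against 5.77 and 6.09. Since both WT values were under the limit, it was at least 1.23-fold higher (limma, adjusted p = 0.179). Kdm4c, a histone demethylase, and Wsb1, a ubiquitin ligase subunit, differed by -0.42 and -0.50 without overlap (limma, adjusted p = 0.223 and 0.245). MyD88-ko replicate 2 was the lowest array for 15 of these 28 genes (53.6%), against 17.9% of all genes.

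Markers of other cells also differed between the genotypes. Of 13 measured neutrophil markers, 11 had negative differences, against 46.9% of all genes, with a median of -2.04. In this list 6 fell (limma, adjusted p under 0.05), against 0.185% of all genes. Among the 6, Stfa2l1 was under the limit on all arrays and Cxcr2 was above it on 1. The mean log2 value of the 13 ran from 4.29 to 4.63 in MyD88-ko and from 6.36 to 6.75 in WT. Of these 13 markers, 5, the granule genes Camp, Ngp and Ltf among them, were under the limit on all arrays. Of 8 measured classical monocyte markers, 7 had negative differences, with a median of -1.65, and 1 fell (Hp), against 46.9% and 0.185% of all genes. The monocyte list means ran from 7.72 to 8.28 in MyD88-ko against 9.26 to 9.43 in WT. Of 11 measured macrophage markers, 9 had positive differences, with a median of 0.38. Without overlap, 6 were higher and 2 lower, against 14.8% and 12.9% of all genes. At an unadjusted limma p under 0.05, 4 were higher and 1 lower (Fcgr1), against 6.16% and 6.39%, none past adjustment. The macrophage list means ran from 10.07 to 10.11 in MyD88-ko and from 9.61 to 9.99 in WT. Of 7 dendritic cell markers, with a median of -0.17, 5, among them Xcr1 and Clec9a, were under the limit on all arrays. Without overlap, 3 were lower and 0 higher, against 12.9% and 14.8% of all genes. At an unadjusted limma p under 0.05, 3 were lower and 0 higher, against 6.39% and 6.16%, none past adjustment. The dendritic list means ran from 4.21 to 4.62 in MyD88-ko and from 4.71 to 4.97 in WT. The 10 melanoma markers had list means of 7.91 to 8.38 and 7.74 to 8.23. The part of these cells in the differences of Hif1a, Egln3, Mxi1 and the other hypoxia targets was not tested, and in sorted bulk RNA fewer cells of a type and less RNA per cell cannot be told apart. MyD88-ko replicate 2, the array lowest for most of the 34 genes, was lower than the other MyD88-ko arrays by a median of -0.46 for monocyte markers, -0.38 for melanoma markers and -0.605 for the 6 endothelial and fibroblast markers, 5 of which were under the limit on all arrays. For the macrophage markers the median was 0.09, for the neutrophil markers -0.12 and for the dendritic cell markers 0.12. For the B, T and NK cell markers it was -0.02, 0.15 and -0.12. The mean of 3 Y-linked genes was 5.51, 5.51 and 4.59 in MyD88-ko and 5.89 and 6.03 in WT, lower on all MyD88-ko arrays, and its part in the results was not tested beyond the fit described in the closing section.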

How the data were processed

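The deposited values are log2, made by the authors with RMA from 100 ng of total RNA per array. The software was Affymetrix Expression Console, version 1.1, according to the submitters' processing notes, and the sources used here give no genome build. RMA corrects background, equalises the arrays' distributions by quantiles and summarises probes, so a change shared by most genes would not be seen. Of 28846 rows, 19572 were paired with 1 gene symbol in the platform annotation and 9274 with none. The probe set with the highest mean over 5 arrays stood for each of 19505 genes.

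Differences (MyD88-ko minus WT) were estimated in R 4.3.3 with the limma package, version 3.58.1 (lmFit, then eBayes, 3 residual degrees of freedom, no covariate), adjusted with Benjamini-Hochberg over all genes, with a threshold of 0.05; the fit was tested on simulated data. Intervals are 95% intervals of the fit. Folds are given only above the background limit, or as "at least" where 1 group was under it. Array data have no read depth, and precision is limited by having 5 arrays.

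The genes and lists were chosen with earlier results of these data known. Values on every array are given for the 6 genes of lowest p and the 2 of highest mean in each of the 2 lists, and 3 genes of lowest p are named in each further list. Adm and the 5 genes of the closing section were chosen after their values were seen. Alternatives were 3 normalizations, a filter on level, robust moderation with a trend, averaged probe sets, weights per array, a replicate block, Y-linked genes as a covariate, a threshold of 0.1, a fit of all rows and each array left out. Promoter sequences are RefSeq's (GRCm38.p6).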

Additional observations from a re-analysis of the deposited data

How the results depend on the processing

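No gene of the 2 lists passed an adjusted p of 0.05 (limma) under any of 16 alternatives, and the lowest adjusted p of any was 0.118. Of 544 values of single genes under these alternatives, 500 kept their sign, and 17 of 34 genes kept it throughout. The filter on level, averaged probe sets, robust moderation, the threshold of 0.1 and the fit of all rows left these differences unchanged. Signs could not turn there, so the 500 overstates how stable they are. The mean difference of glycolysis over that of the other targets, 0.25, stayed between 0.17 and 0.31 with each array left out and between 0.24 and 0.35 otherwise. The settings that left single genes unchanged, and equal array medians, also left this contrast at 0.25 and are no check of it. The cause of the changes below was not tested.

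Counts over all genes moved from 37 to 63 with cyclic loess, 15 with array weights, 70 with the replicate block, 0 with the Y-linked covariate, 84 at a threshold of 0.1, 3 with all rows and 0 to 1 with single arrays left out. The single glycolysis gene lower without overlap became 2 after quantile normalization again, 0 with equal array medians, 4 with cyclic loess and 1 to 8 with single arrays left out, 8 being without WT replicate 1. The 9 other targets lower without overlap became 8 to 10 where this could be counted. Over all genes this share was 12.9% on the deposited values and 10.4%, 8.96% and 14.7% with the 3 normalizations in that order. It was 17% to 18% without a MyD88-ko array. Without WT replicate 1 it was 23.5% and without WT replicate 2 it was 29.7%, as groups separate more easily with 1 WT array. Negative differences in glycolysis ran from 5 (without MyD88-ko replicate 2, 48.1% of all genes) to 14 (without WT replicate 1, 44.7% of all genes). Among the other targets they ran from 10 to 16 with single arrays left out (44.7% to 49.2% of all genes). They reached 17 with the Y-linked covariate (45.5% of all genes). Those at an unadjusted p under 0.05 ran from 0 to 1 (without MyD88-ko replicate 3) and from 1 to 4, the 1 being without WT replicate 2 and a 2 without WT replicate 1. The Y-linked covariate gave 1 in glycolysis. The replicate block gave 1 in glycolysis, 7 among the other targets and 1 passing gene of the further lists, Epas1 (1.32, limma, adjusted p = 0.0496). Of all genes, 6.61% were lower at an unadjusted limma p under 0.05 with the replicate block and 5.35% with the Y-linked covariate. Without a MyD88-ko array the share was 4.63% to 5.96%. Replicate numbers are shared only as numbers, and deviations of same-numbered arrays correlated at 0.059 and 0.105 over 2 pairs. With 2 WT arrays their deviations from the WT mean are exact opposites, so the 2 correlations are not separate checks.

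Genes that changed sign included some well away from 0 with all arrays, namely Bnip3 (-0.31), Kdm3a (-0.29), P4ha2 (0.29), Pdk1 (0.26), Pfkl (-0.25), Ndrg1 (-0.25) and Egln1 (-0.24). With equal array medians Pgk1 was 0.034, Ldha 0.034 and Mif 0.0152. With cyclic loess Aldoa was -0.043 and Tpi1 -0.037. With the replicate block Aldoa was -0.056, Tpi1 -0.065, Pgam1 -0.046 and Adm -0.15. With the Y-linked covariate Hk2 was -0.12, Aldoa -0.11, Tpi1 -0.14, Pgam1 -0.11, Adm -0.37 and P4ha2 -0.018. With single arrays left out Hk1 ran from -0.33 to 0.030, Hk2 from -0.10 to 0.49, Pfkl from -0.42 to 0.039, Pfkfb4 from -0.14 to 0.36, Aldoa from -0.13 to 0.13, Tpi1 from -0.12 to 0.20, Pgk1 from -0.17 to 0.18, Pgam1 from -0.29 to 0.38 and Ldha from -0.17 to 0.16. Bnip3 ran from -0.53 to 0.056, Adm from -0.45 to 0.77, Egln1 from -0.39 to 0.018, Ndrg1 from -0.53 to 0.060, Pdk1 from -0.072 to 0.58, Mif from -0.15 to 0.10 and Kdm3a from -0.50 to 0.037.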

Other observations

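Of the 28 further HIF targets, whose median difference was -0.04, 5 are described here and were picked after their values were seen, 4 with lower and 1 with higher values in MyD88-ko. Vegfa, the main angiogenic growth factor, measured 8.37, 7.72 and 8.57 in MyD88-ko and 9.21 and 8.93 in WT. Its groups did not overlap, with a difference of -0.85 that did not pass (limma, adjusted p = 0.276) and stayed between -1.02 and -0.60 with each array left out. Hilpda, which blocks lipolysis at lipid droplets, differed by -0.71, also without overlap (limma, adjusted p = 0.375), and by -0.46 without MyD88-ko replicate 2. Plod1, a collagen lysyl hydroxylase, had the opposite sign, at 8.603, 8.56 and 8.42 in MyD88-ko against 7.25 and 8.14 in WT. The 0.83 difference, without overlap, was not past the threshold (limma, adjusted p = 0.276).

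Arg1 and Nos2, which compete for arginine in macrophages, were lowest on MyD88-ko replicate 2, as were most of the glycolysis and hypoxia genes. Arg1 measured 9.78, 8.10 and 9.67 in MyD88-ko and 9.63 and 10.31 in WT, and its difference of -0.79 was -0.25 without that array. Nos2 measured 6.61, 4.12 and 6.58 against 6.63 and 6.94 and was above the limit on 1 array only. That array was MyD88-ko replicate 1, whose limit was lower than those of the WT arrays.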
